A study of Mus musculus with 8 samples.

Results

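Sebaceous glands open into the hair canal and fill it with sebum, a mixture of wax esters, triglycerides and sterol esters made by sebocytes. The genes described here encode 9 enzymes of sebum lipid synthesis and 1 receptor that drives it: Awat1, Awat2, Dgat2l6, Mc5r, Fads2, Scd1, Scd3, Elovl3, Elovl6 and Soat1. They were chosen as a list of names, and each was read from the probe sets whose platform annotation gives that symbol alone. Of the 10 genes, 9 had such a probe set, 1 each, among 22180 genes on the array, and Soat1, which esterifies cholesterol, is not analysed here.

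Dorsal skin of male mice was hybridised to 8 Affymetrix arrays, 1 array for each label. The arrays with imiquimod (IMQ, a Toll-like receptor agonist that inflames mouse skin) were labelled KO_IMQ_Allo, KO_IMQ_B, KO_IMQ and WT_IMQ, and those without it KO_Allo, KO_CTRL-B, KO_CTRL and WT_CTRL. KO arrays came from strain B6.Cg-Il22ra1tm1.1Koll/J, which carries a targeted allele of the IL-22 receptor alpha chain, and WT arrays from C57BL/6 mice. Per the labels, 83.3 mg of a 5% IMQ cream went onto the back and ears each day from day 1 to day 7. A vehicle or alloferon cream, alloferon being a peptide, followed 6 hours later in treated mice, and 4 mice per group are stated. Whether each array holds 1 mouse or a pool and what the letter B stands for are not given in the sources used here. Neither are the animals' age and the cream that the arrays without Allo received. Nor do the sources say whether, or in which cells, the allele is deleted. Arrays whose labels differ in IMQ alone form 4 pairs, called KO Allo, KO B, KO plain and WT below.

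The enzymes act in sequence. Fatty acids are lengthened by elongases such as Elovl3 and Elovl6 and given double bonds by desaturases such as Scd1, Scd3 and Fads2. Acyltransferases then join them to fatty alcohols, giving wax esters (Awat1, Awat2), or to glycerol. Mc5r, a melanocortin receptor of sebocytes, promotes this output, and mice without Mc5r or without working Scd1 have defective sebum.

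Genes of 2 families in the list lie near each other. On GRCm38.p6 (RefSeq coordinates, used here for names and positions only), Awat2 (chrX:100402221-100494278), Dgat2l6 (chrX:100524838-100546108) and Awat1 (chrX:100572247-100578206) lie on the X chromosome in that order. Otud6a and Igbp1 come between Awat2 and Dgat2l6 in the order of protein-coding genes, and 30.6 kb separate the end of the Awat2 annotation from the start of Dgat2l6. Dgat2l6 and Awat1 are neighbours, 26.1 kb apart. Scd3 (chr19:44203288-44244016) and Scd1 (chr19:44394450-44407709) lie in the stearoyl-CoA desaturase cluster of chromosome 19, with Scd2 and Scd4 between them. Elovl3 (chr19:46131897-46135694) and Fads2 (chr19:10062765-10101503) are on the same chromosome, and Elovl6 is at chr3:129532386-129638495. Members of these families resemble each other in sequence, and whether their probes cross-hybridise was not tested.

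RefSeq promoters (250 bases before to 50 after the start) were matched for 7 of the 10 genes, 8 promoters in all. Those of Awat1 and Dgat2l6 are shown because both genes had nearly the same profile over the arrays, that of Scd3 because its IMQ difference was the largest of the list, and that of Fads2 because its profile was least like the others. They cover chrX:100571997-100572296 (+ strand), chrX:100524588-100524887 (+ strand), chr19:44203038-44203337 (+ strand) and chr19:10101454-10101753 (- strand). Each runs 5′ to 3′, and capitals mark a match to a searched motif on either strand.
Awat1: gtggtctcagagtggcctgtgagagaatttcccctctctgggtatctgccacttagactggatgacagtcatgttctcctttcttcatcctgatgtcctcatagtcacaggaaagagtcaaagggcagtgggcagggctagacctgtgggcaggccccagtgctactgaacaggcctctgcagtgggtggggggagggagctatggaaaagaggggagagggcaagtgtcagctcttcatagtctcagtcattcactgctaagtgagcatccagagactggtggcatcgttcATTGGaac
Dgat2l6: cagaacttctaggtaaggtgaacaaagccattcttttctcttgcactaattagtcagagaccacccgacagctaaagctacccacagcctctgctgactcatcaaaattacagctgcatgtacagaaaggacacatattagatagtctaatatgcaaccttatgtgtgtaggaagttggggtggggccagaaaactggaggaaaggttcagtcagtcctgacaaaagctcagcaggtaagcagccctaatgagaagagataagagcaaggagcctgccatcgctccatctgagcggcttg
Scd3: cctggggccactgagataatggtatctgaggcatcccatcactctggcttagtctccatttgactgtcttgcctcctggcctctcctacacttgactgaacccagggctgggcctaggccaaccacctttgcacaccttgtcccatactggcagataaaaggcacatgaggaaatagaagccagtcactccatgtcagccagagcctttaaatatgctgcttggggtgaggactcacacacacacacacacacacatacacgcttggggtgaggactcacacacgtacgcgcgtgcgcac
Fads2: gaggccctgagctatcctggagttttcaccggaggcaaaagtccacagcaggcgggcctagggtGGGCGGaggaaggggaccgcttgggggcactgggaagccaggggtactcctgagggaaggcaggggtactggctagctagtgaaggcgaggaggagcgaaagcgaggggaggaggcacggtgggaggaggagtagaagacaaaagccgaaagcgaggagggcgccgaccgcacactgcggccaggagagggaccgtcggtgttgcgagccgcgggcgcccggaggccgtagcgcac

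Motifs were searched as exact letters on both strands, and none of them overlaps another. CCAAT stood in 4 of the 8 promoters (Awat1, both of Awat2, and Soat1) and in 37.4% of all 32851 promoters of the same length, and the GC box GGGCGG in 3 (1 of Awat2, Fads2 and Soat1) against 35.7%. In the promoters printed above these are a CCAAT on the opposite strand of Awat1, at position 42 from the start counted as 0, and a GC box of Fads2 at position -186. The sterol element TCACNCCAC (1.24% of all promoters), TATAAA (13.6%), the E box CACGTG (7.15%) and a direct repeat of AGGTCA with 1 base between (0.0396%) matched 0 of the 8. These are descriptions of letters in a short window.

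Values are log2 levels, in which 1 unit is a 2-fold difference, and array medians lay within 0.05 of each other. Il22ra1, the targeted gene, read 9.40, 8.91, 8.88, 8.92, 8.59 and 8.91 on the 6 KO arrays (KO_IMQ_Allo, KO_IMQ_B, KO_IMQ, KO_Allo, KO_CTRL-B and KO_CTRL), against 8.64 on WT_IMQ and 8.23 on WT_CTRL. Within each IMQ status it was thus not lower on the arrays labelled KO, though KO_CTRL-B lay below WT_IMQ. Since a probe set for the transcript need not cover the altered part, this reading does not check the genotype. Some arrays stood apart in tissue content. KO_CTRL had a hair follicle list median of 6.88, where KO_Allo, KO_CTRL-B and WT_CTRL had 8.87, 9.93 and 9.50, and the skeletal muscle list median was 11.15 on KO_CTRL and 10.93 on WT_CTRL, with no more than 9.08 on any of the remaining 6. KO_Allo, which had no IMQ, had an injury keratin median of 11.08, against 11.65 to 12.32 on the IMQ arrays and 6.99 to 8.65 on the other 3 arrays without IMQ. In whole skin, fewer sebocytes and less RNA per sebocyte cannot be told apart.

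The first comparison asks what IMQ did to these genes over all 4 pairs. Mc5r, Fads2 and Awat2 fell, by 2.51-fold, 2.19-fold and 1.77-fold, and these 3 of 9 passed in limma at an adjusted p under 0.05, where 1.19% of all genes passed in that direction. Scd3 had the largest difference, 4.35-fold lower on average, but its size varied most between pairs and it did not pass. Elovl6 and Scd1 were lower in every pair without passing, while Awat1, Dgat2l6 and Elovl3 had no common direction. In all, 6 of 9 were lower with IMQ in 4 of 4 pairs, which 14.3% of all genes were, and 0 of 9 were higher in 4 of 4. The median difference of the 9 genes was -0.59 log2 units, and that of all genes -0.01.

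Mc5r, the melanocortin receptor (on chromosome 18), read 7.97 on KO_IMQ_Allo, 7.46 on KO_IMQ_B, 7.15 on KO_IMQ and 6.44 on WT_IMQ, against 8.79 on KO_Allo, 8.60 on KO_CTRL-B, 8.54 on KO_CTRL and 8.40 on WT_CTRL. All 4 IMQ arrays lay below all 4 arrays without IMQ, which held for Mc5r alone of the 9 genes and for 5.04% of all genes. Without IMQ the 4 arrays were within 0.40 log2 units of each other, and with IMQ they spread over 1.53. The pair differences were -0.82 in KO Allo, -1.14 in KO B, -1.39 in KO plain and -1.96 in WT, and the limma difference was -1.33 ± 0.18 (SE, 4 pairs, adjusted p = 0.0229).

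Among the desaturases, Scd3 was the most variable gene of the list, with a range of 4.49 log2 units over the 8 arrays. It read 9.84 on KO_IMQ_Allo, 8.43 on KO_IMQ_B, 7.87 on KO_IMQ and 6.12 on WT_IMQ, against 10.27, 10.38, 10.60 and 9.50 on KO_Allo, KO_CTRL-B, KO_CTRL and WT_CTRL. KO_IMQ_Allo lay above WT_CTRL, so the groups overlap, and the other 3 IMQ arrays lay below every array without IMQ. The pair differences ran from -0.43 in KO Allo through -1.95 in KO B and -2.73 in KO plain to -3.38 in WT, a 10.4-fold difference in WT, and in limma the difference was -2.12 ± 0.43 (adjusted p = 0.0552).

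Scd1, the main delta-9 desaturase of skin, showed the same order at a smaller size. Its levels were 11.75, 11.18, 11.25 and 10.59 on KO_IMQ_Allo, KO_IMQ_B, KO_IMQ and WT_IMQ, against 11.80, 11.57, 11.91 and 11.41 on KO_Allo, KO_CTRL-B, KO_CTRL and WT_CTRL. The pairs differed by -0.05, -0.38, -0.66 and -0.82 (KO Allo, KO B, KO plain, WT), and the limma value was -0.48 ± 0.14 (adjusted p = 0.131).

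Fads2, the delta-6 desaturase, had another pattern. It read 7.13, 7.75, 6.53 and 7.19 on KO_IMQ_Allo, KO_IMQ_B, KO_IMQ and WT_IMQ, against 8.57, 8.70, 7.30 and 8.54 on KO_Allo, KO_CTRL-B, KO_CTRL and WT_CTRL. The 2 KO plain arrays were thus low within each IMQ status, and KO_CTRL lay below KO_IMQ_B. Its pair differences of -1.44, -0.95, -0.77 and -1.35 (KO Allo, KO B, KO plain, WT) had the largest size in KO Allo, where those of Scd3, Scd1 and Mc5r had their smallest. In limma it differed by -1.13 ± 0.14 (adjusted p = 0.0178).

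The acyltransferases fell into 2 patterns. Awat2, a wax ester synthase, read 5.75, 4.88, 5.15 and 5.19 on KO_IMQ_Allo, KO_IMQ_B, KO_IMQ and WT_IMQ, against 6.44, 5.66, 6.44 and 5.70 on KO_Allo, KO_CTRL-B, KO_CTRL and WT_CTRL. The groups overlap by KO_IMQ_Allo alone, and the limma difference was -0.82 ± 0.14 (adjusted p = 0.0365). It lies below the median level of all genes and arrays (6.05) on 6 of 8 arrays, where RMA compresses differences.

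Awat1, the other wax ester synthase, read 9.65, 8.73, 8.77 and 7.23 on KO_IMQ_Allo, KO_IMQ_B, KO_IMQ and WT_IMQ, against 9.35, 8.64, 9.07 and 7.83 on KO_Allo, KO_CTRL-B, KO_CTRL and WT_CTRL. Dgat2l6, an acyltransferase of the same family, read 8.38, 7.44, 7.40 and 5.90 with IMQ, against 7.97, 7.28, 7.83 and 6.56 without it, in the same order of arrays. In both genes IMQ arrays were higher in the KO Allo and KO B pairs (by 0.29 and 0.09 for Awat1, and by 0.41 and 0.16 for Dgat2l6) and lower in the KO plain and WT pairs (-0.31 and -0.60 for Awat1, -0.43 and -0.67 for Dgat2l6). Over the 4 pairs limma gave -0.13 ± 0.16 for Awat1 (adjusted p = 0.718) and -0.13 ± 0.19 for Dgat2l6 (adjusted p = 0.774).

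Of the elongases, Elovl3, which makes very long saturated and monounsaturated chains, followed Awat1. It read 11.87, 11.34, 11.09 and 10.11 on KO_IMQ_Allo, KO_IMQ_B, KO_IMQ and WT_IMQ, against 11.49, 11.09, 11.22 and 10.39 on KO_Allo, KO_CTRL-B, KO_CTRL and WT_CTRL, with a limma IMQ difference of 0.06 ± 0.13 (adjusted p = 0.872). Elovl6, which extends palmitate to stearate, read 11.54, 10.71, 10.80 and 10.28 with IMQ, against 11.94, 11.05, 11.74 and 10.95 without it. Elovl6 was lower with IMQ in each pair (differences of -0.41, -0.35, -0.94 and -0.67 in KO Allo, KO B, KO plain and WT), and the limma value of -0.59 ± 0.12 did not pass (adjusted p = 0.0593).

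**Figure D1:**
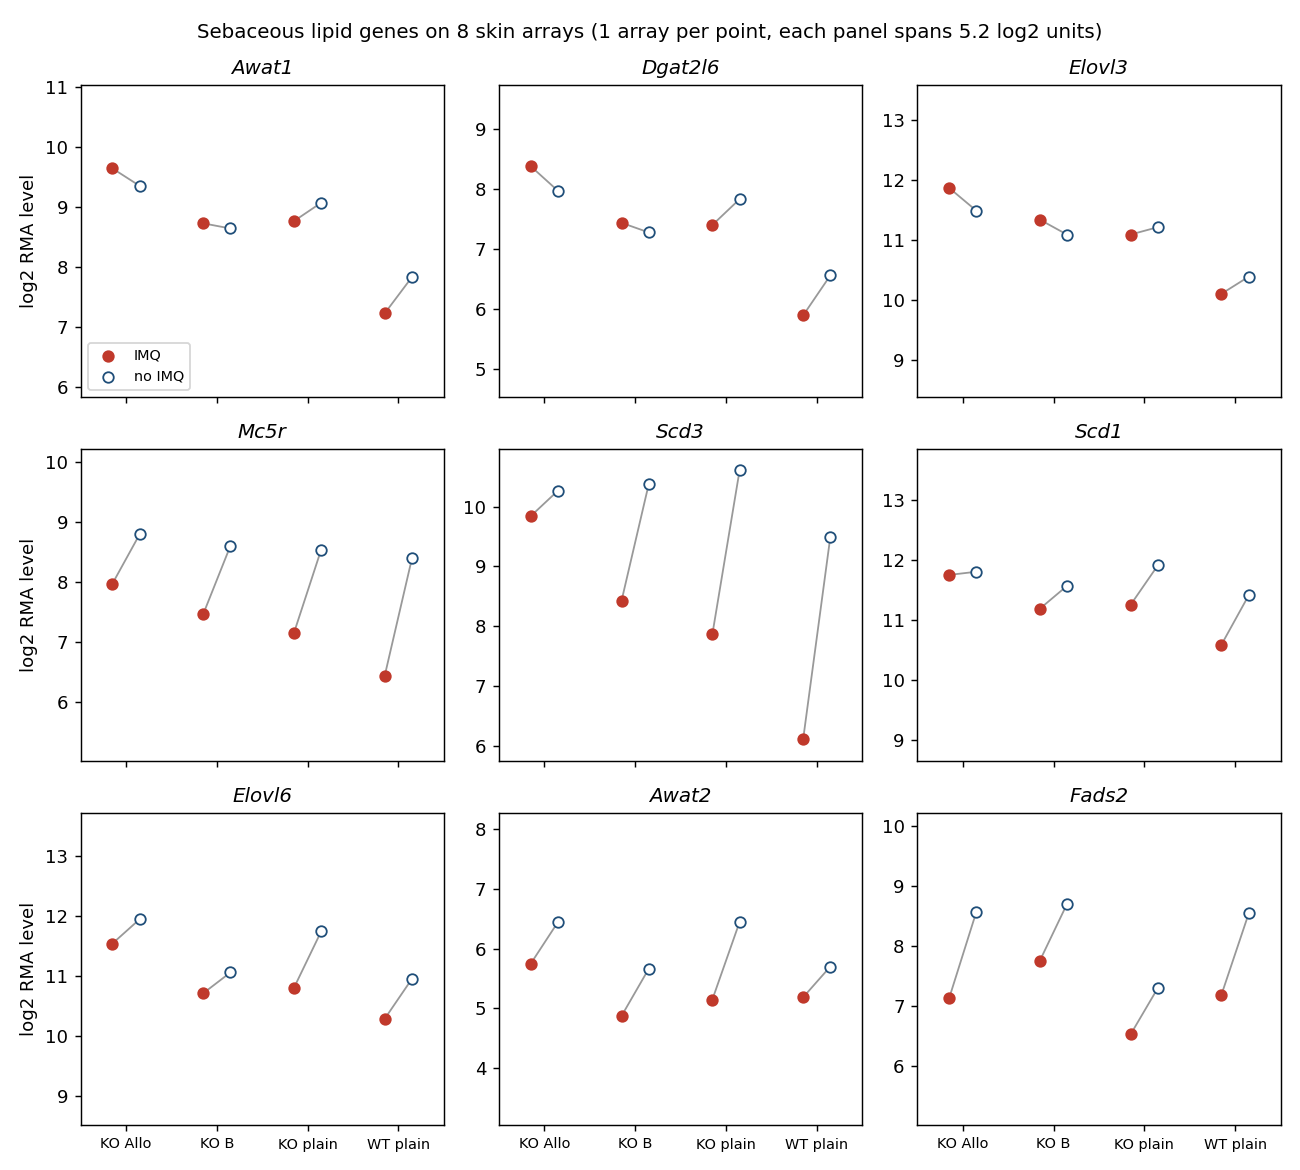
Log2 RMA level (y axis) of the 9 genes in the 4 pairs of arrays (x axis), with IMQ as filled and without IMQ as open points, 1 array per point and a line joining each pair. Awat1, Dgat2l6 and Elovl3 were lowest on both WT arrays, with pair differences between -0.67 and 0.41, while Mc5r was lower with IMQ in each pair and Scd3 differed by -0.43 in KO Allo and -3.38 in WT.

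Which genes passed depended on the pairs used. Leaving out either array of a pair removes the pair. Without the WT pair or without the KO B pair 0 of 9 passed in limma. In these fits 5 and 6 of the 9 had an unadjusted p under 0.05, as did 3093 and 3017 of all 22180 genes. Without the KO plain pair only Fads2 passed, and without the KO Allo pair 5 passed: Mc5r, Fads2, Awat2, Scd3 and Scd1. The calls over the whole array moved too: genes called lower were 0% of all without the WT pair, 0.00902% without the KO B pair, 0.622% without the KO plain pair and 2.17% without the KO Allo pair. Without the KO Allo pair the difference of Scd3 was -2.69 ± 0.26 (adjusted p = 0.00468).

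**Figure D2:**
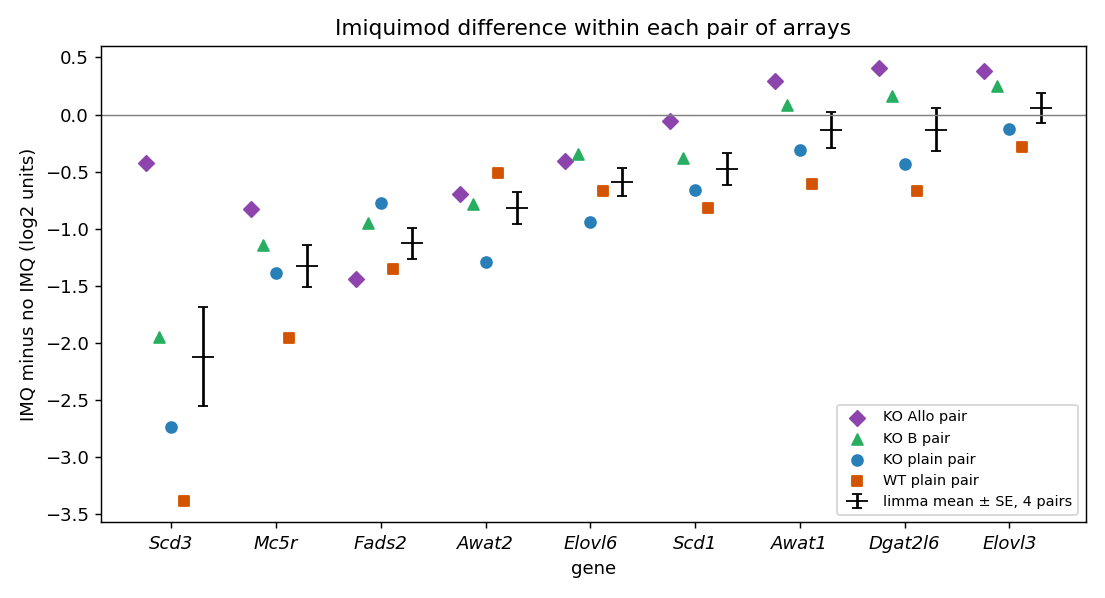
IMQ minus no IMQ (y axis, log2 units) for each gene (x axis), with 1 symbol per pair of arrays and the limma mean with its standard error over 4 pairs. In Scd3, Mc5r, Scd1, Awat1, Dgat2l6 and Elovl3 the pairs ran in the order KO Allo, KO B, KO plain, WT from highest to lowest, which Fads2, Awat2 and Elovl6 did not follow. This order was read off after the values were seen, and its share among all genes was not counted. Some of these genes had nearly the same profile (Awat1 and Dgat2l6, r = 0.998), so they are not separate observations.

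The second comparison asks whether the IMQ difference was found in KO mice and whether it differed from that in WT. Over the 3 KO pairs, Mc5r measured -1.12 ± 0.14 log2 units, Fads2 -1.05 ± 0.16, Awat2 -0.93 ± 0.15, Scd3 -1.70 ± 0.42 and Elovl6 -0.57 ± 0.15, against -1.96, -1.35, -0.51, -3.38 and -0.67 in the WT pair. In limma 0 of 9 genes and 0% of all genes passed for the KO pairs, and 5 of 9 had an unadjusted p under 0.05, as did 3093 of all 22180 genes. Without the KO Allo pair 2 of 9 passed for the KO pairs, Mc5r and Scd3, both lower, where 0.293% of all genes passed in that direction.

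The difference between the responses, KO minus WT, was largest for Scd3 at 1.68 ± 0.85 log2 units and Mc5r at 0.84 ± 0.29, where a positive value is a smaller fall in KO. It was 0.71 ± 0.37 for Dgat2l6, 0.63 ± 0.30 for Awat1, 0.46 ± 0.30 for Scd1 and 0.45 ± 0.27 for Elovl3. In limma 0 of 9 genes and 0% of all genes passed for this difference (adjusted p = 0.983 for these 6 genes), and Mc5r alone of the 9 had an unadjusted p under 0.05, as did 4.12% of all genes. The KO pairs include KO Allo, while the WT labels name no alloferon, so alloferon is mixed into this difference. In KO Allo, KO B and KO plain, Scd3 differed by -0.43, -1.95 and -2.73, and Mc5r by -0.82, -1.14 and -1.39. Only 1 WT pair bears on this comparison, so missing the threshold is no sign of equal responses. The fit leaves no residual for that pair, so the errors rest on the spread among the KO pairs.

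The third comparison sets KO against WT. Awat1, Dgat2l6 and Elovl3 were higher on every KO array than on either WT array, with or without IMQ. Awat1 read from 8.64 to 9.65 on the 6 KO arrays (mean 9.04 ± 0.40, SD, n = 6), against 7.23 and 7.83 on the WT arrays. Dgat2l6 read from 7.28 to 8.38 (7.72 ± 0.42), against 5.90 and 6.56 in WT, and Elovl3 from 11.09 to 11.87 (11.35 ± 0.30), against 10.11 and 10.39 in WT. This complete separation, counted after the values were seen, held for 3 of 9 genes and for 4.09% of all genes.

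With the KO plain pair set against the WT pair over both IMQ states, Awat1 measured 1.39 ± 0.22 log2 units, Dgat2l6 1.39 ± 0.27, Elovl3 0.91 ± 0.19 and Fads2 -0.95 ± 0.19 (adjusted p = 0.670 for each in limma). Scd3 measured 1.43 ± 0.61, Elovl6 0.65 ± 0.18, Scd1 0.58 ± 0.20, Mc5r 0.43 ± 0.26 and Awat2 0.35 ± 0.20. In limma 0 of 9 genes and 0% of all genes passed, and 6 of 9 had an unadjusted p under 0.05, as did 6.29% of all genes. Each arm has its own level in this fit, so the errors and p-values measure how the IMQ difference varied among pairs. They hold no spread between arms of the same genotype. Leaving out 1 array moved several of these KO minus WT differences by over 1.5 times. Scd3 was 0.59 without WT_IMQ and 2.27 without WT_CTRL, Mc5r 0.0084 and 0.85, and Scd1 0.35 and 0.81. Awat2 was 0.04 without KO_CTRL, 0.67 without KO_IMQ, 0.56 without WT_IMQ and 0.15 without WT_CTRL, and Elovl6 was 0.42 without KO_CTRL. With the B pair merged into the KO plain arm, Fads2 was -0.29 ± 0.45, an error that includes the spread between those arms.

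With all 3 KO arms set against WT, a contrast chosen after the values were seen, Awat1 was 2.84-fold higher in KO (adjusted p = 0.532), Dgat2l6 2.81-fold (log2 1.49 ± 0.22, adjusted p = 0.552) and Elovl3 2.15-fold (log2 1.10 ± 0.15, adjusted p = 0.552). Again 0 of 9 genes and 0% of all genes passed in limma, and 7 of 9 had an unadjusted p under 0.05, as did 6.66% of all genes. Here too the errors and p-values hold no spread between KO arms. Leaving out each array in turn gave 1.19 to 1.82 log2 units for Awat1, 1.13 to 1.85 for Dgat2l6 and 0.88 to 1.33 for Elovl3. Fads2 did not share the direction, at -0.20 ± 0.16 over all KO arms. The KO arms include KO Allo, while the WT labels name no alloferon, so alloferon is mixed into this contrast. Strain and genotype come together on these arrays and cannot be told apart.

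The genes that separated in this way were not confined to the list. Among 9 measured genes of a list of other sebaceous gland genes, 4 lay higher on all KO arrays than on both WT arrays. They were Krt79, a keratin of the gland's duct, Cidea, a lipid droplet protein, Fa2h, which hydroxylates fatty acids, and the lipase-family gene Pnpla5. Fa2h and Krt79 separated narrowly. Fa2h was 9.66 on KO_IMQ, against 9.64 on WT_CTRL, and Krt79 was 10.89 on KO_CTRL, against 10.79 on WT_CTRL. Pnpla5 was lowest among KO arrays on KO_IMQ_B, at 6.91, against 6.03 on WT_IMQ and 6.69 on WT_CTRL. Cidea read 8.38, 7.73, 7.53, 8.15, 7.57 and 8.15 on KO_IMQ_Allo, KO_IMQ_B, KO_IMQ, KO_Allo, KO_CTRL-B and KO_CTRL, against 6.92 on WT_IMQ and 7.36 on WT_CTRL. In the other lipid lists, 1 of 18 fatty acid genes (Elovl4) and 2 of 13 glycerolipid genes (Dgat1 and Mogat2) did so. Of sterol genes 1 of 16 (Fdft1) did so, of regulators 0 of 16, and of all genes 4.09%. The regulator Pomc lay lower on all KO arrays, as did 522 of all 22180 genes. Its gap was small and at a low level, with 5.14 on KO_CTRL and 5.17 on WT_IMQ. Among the 77 measured genes of the 7 cell type lists, 0 lay higher on all KO arrays.

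WT_IMQ was the lowest of the 8 arrays for 7 of the 9 genes (Awat1, Dgat2l6, Mc5r, Scd1, Scd3, Elovl3 and Elovl6), which it was for 15.4% of all genes. Awat2 was lowest on KO_IMQ_B and Fads2 on KO_IMQ. The medians of 4 other lipid lists were also lowest on WT_IMQ, at 8.82 for fatty acid synthesis, 7.89 for glycerolipids, 7.50 for regulators and 8.33 for other sebaceous gland genes. Among cell type lists, the hair follicle median was lowest on KO_IMQ (5.61, against 6.27 on WT_IMQ), and the adipocyte median on KO_IMQ_B (6.75, against 7.70 on WT_IMQ).

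The fourth comparison concerns alloferon, with 1 array against 1 and no replicate check. Among the IMQ arrays, KO_IMQ_Allo was the highest for 8 of 9 genes, which it was for 29.5% of all genes. It lay above KO_IMQ for all 9, by 0.50 log2 units in Scd1 to 1.97 in Scd3 (median 0.78, and 0.0022 over all genes). It lay above KO_IMQ_B for 8, by 0.51 in Mc5r to 1.41 in Scd3, with Fads2 at -0.63 (median of the 9 genes 0.83, and 0.0035 over all genes). For Awat1 the difference was 0.88 from KO_IMQ and 0.92 from KO_IMQ_B, and for Dgat2l6 it was 0.98 and 0.94.

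Without IMQ the alloferon array differed less. KO_Allo lay above KO_CTRL for 7 of 9 genes with a median difference of 0.20 log2 units, against 0.015 over all genes. The largest difference was 1.27 for Fads2, with Scd1 at -0.11 and Scd3 at -0.34. Against KO_CTRL-B the median was 0.40, and -0.0035 over all genes. Elovl6 at 0.89, Awat2 at 0.78 and Awat1 at 0.71 were above KO_CTRL-B, and Fads2 and Scd3 were at -0.14 and -0.11. Between the 2 KO arrays that differ only in the letter B, KO_CTRL-B lay below KO_CTRL for 7 of 9 genes (median -0.34, and 0.0122 over all genes). Medians of this size thus also occurred between arrays with no alloferon in their labels.

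Lists for other cell types also differed on the alloferon arrays. On KO_IMQ_Allo the macrophage and neutrophil list median was 8.23, against 8.96 on KO_IMQ_B and 8.84 on KO_IMQ, and the injury keratin median was 11.65, against 12.32 and 12.25. The adipocyte list, whose cells also use Scd1 and Elovl6, had a median of 7.21 on KO_IMQ_Allo, against 6.75 on KO_IMQ_B and 7.13 on KO_IMQ. The hair follicle median was 6.62, against 7.62 and 5.61. On KO_Allo, without IMQ, the macrophage and neutrophil median was higher, at 7.49, against 6.73 on KO_CTRL-B and 6.76 on KO_CTRL. The adipocyte median was lower there, at 7.05, against 7.64 and 8.47. Their part in the levels of the sebaceous genes was not tested.

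The genes of the list fell into groups by their likeness over the 8 arrays, given here as Pearson's r, a description with no test, since the arrays share pairs and IMQ status. Awat1 and Dgat2l6, neighbours on the X chromosome, had r = 0.998, and Elovl3 had r = 0.978 with Awat1. Scd3 and Mc5r had r = 0.967, Scd1 and Scd3 0.956, and Elovl6 and Scd1 0.937. Awat2 was most like Elovl6 (r = 0.893). Fads2 was least like the rest, at 0.679 with Mc5r, its nearest, and at -0.05 with Awat1. Awat2, which lies near Dgat2l6 on the X chromosome, had r = 0.471 with it.

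Outside the list, the genes whose profile was most like the mean of the 9 were Cers4, a ceramide synthase (r = 0.984), Far2, which makes the fatty alcohols used for wax esters (0.968), Aadacl4 (0.956), Fa2h (0.949) and Sec14l4 (0.948), among 1246 genes with an SD of at least 0.5. Far2 read 11.32, 10.84, 10.66 and 9.96 on KO_IMQ_Allo, KO_IMQ_B, KO_IMQ and WT_IMQ, against 11.46, 10.98, 11.52 and 10.73 on KO_Allo, KO_CTRL-B, KO_CTRL and WT_CTRL. Cers4 read 9.98, 9.58, 9.32 and 8.68, against 10.35, 9.84, 9.95 and 9.45 in the same order. Both were lower with IMQ in every pair and lowest on WT_IMQ. The mean profile by which they were chosen had these features too, so this is no separate result.

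**Figure D3:**
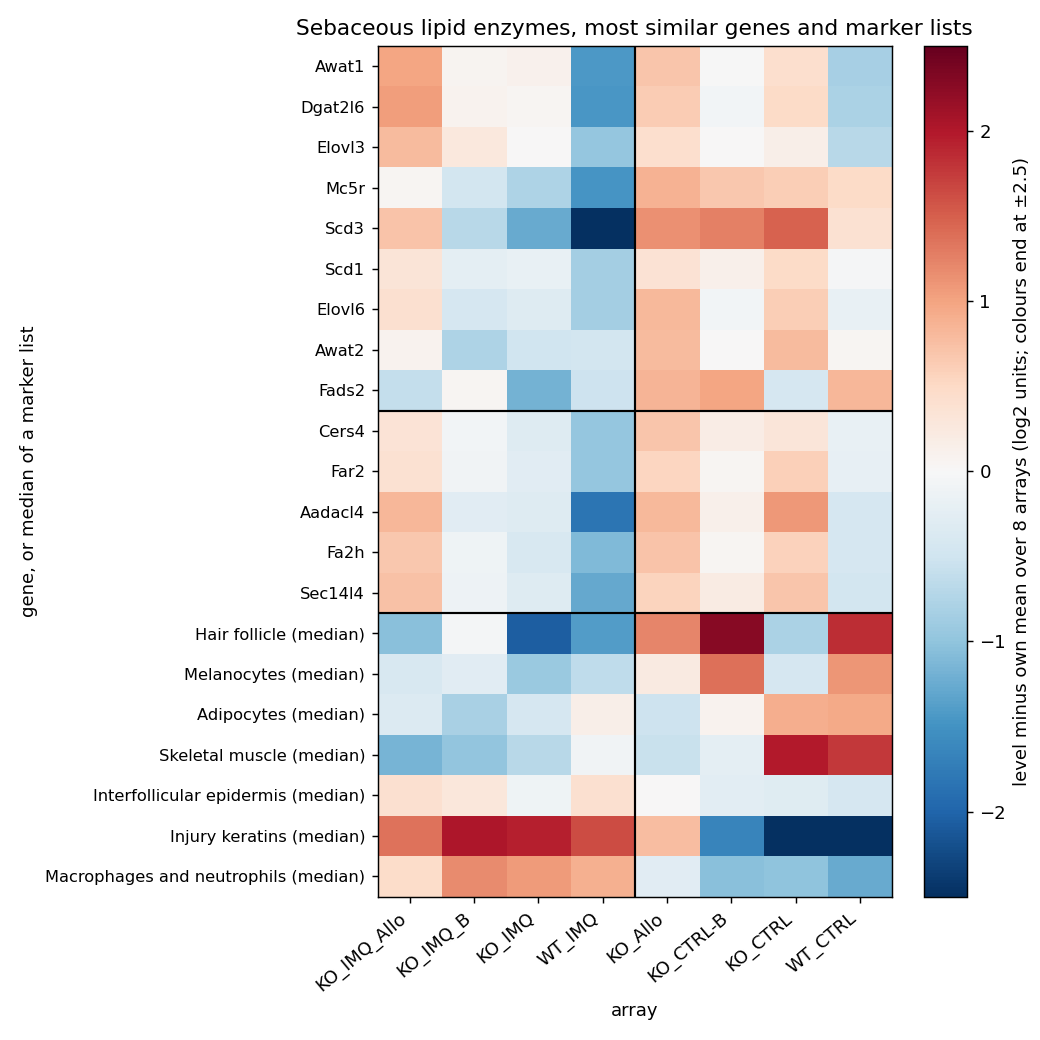
Level minus its own mean over the 8 arrays (colour, log2 units) for the 9 genes, the 5 most similar genes and the medians of 7 marker lists (rows), on the IMQ arrays (left) and those without IMQ (right). KO_CTRL was low for hair follicle genes and Fads2 but not for the other 8 genes, and WT_IMQ was the lowest array for 7 of 9.

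Lists for other tissues show what else moved with IMQ. Genes that fell or rose are those called in limma over 4 pairs at an adjusted p under 0.05. Of all genes, 1.19% fell and 1.9% rose. Hair follicle genes fell in 17 of 22 (median -2.43 log2 units) and melanocyte genes in 5 of 6 (-1.38), while 6 of 12 macrophage and neutrophil genes rose (1.13). In skeletal muscle genes 3 of 14 fell (-1.35), in adipocyte genes 1 of 11 (-0.65), and in interfollicular epidermis 1 of 8 rose (0.15). Called or not, 12 of 14 skeletal muscle genes and 4 of 11 adipocyte genes were lower in 4 of 4 pairs. In the skeletal muscle and adipocyte lists 0 genes were higher in 4 of 4. Of all genes, 14.3% were lower in 4 of 4 and 12.6% were higher. Among injury keratins 1 of 4 rose, Krt16, with a list median of 3.51. By pair the injury keratin difference was 0.39 in KO Allo, 3.82 in KO B, 5.26 in KO plain and 4.39 in WT. That of macrophages and neutrophils was 0.25, 1.47, 1.75 and 1.54 in the same order. The hair follicle difference by pair was -1.79 in KO Allo, -2.03 in KO B, -1.31 in KO plain and -3.45 in WT. The hair follicle median was 6.88 on KO_CTRL and 9.50 on WT_CTRL. By contrast, 8 of the 9 sebaceous genes were higher on KO_CTRL than on WT_CTRL, and Fads2 was lower. The median difference was 0.79 for the 9 genes and 0.0048 over all genes. The part of hair, fat or immune content in the sebaceous values was not tested.

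Other lists of lipid synthesis genes were set beside the sebaceous genes, with no test of the difference between lists. Over all genes, 1.9% rose and 1.19% fell at the same threshold. In the fatty acid list 1 of 18 measured genes rose, the elongase gene Elovl1, by 0.58 ± 0.10 log2 units (adjusted p = 0.0371), and 0 fell (median -0.11). Fads3 and Elovl5 were lower in 4 of 4 pairs without passing, at -1.04 ± 0.23 (adjusted p = 0.0647) and -0.81 ± 0.20 (adjusted p = 0.0806), and Acacb measured -0.60 ± 0.23. In the glycerolipid and wax ester list 0 of 13 passed (median -0.0043), with Far2 at -0.48 ± 0.16, Gpam at -0.56 ± 0.13, Plin2 at 0.40 ± 0.11 and Lpin2 at 0.77 ± 0.17.

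In the list of sterol synthesis and uptake 2 of 16 rose, Ebp by 0.64 ± 0.10 (adjusted p = 0.0281) and Sqle, squalene epoxidase, by 0.62 ± 0.11 (adjusted p = 0.0401), and 0 fell (median 0.25). In 4 of 4 pairs, 8 of 16 were higher, as were 12.6% of all genes, and 0 were lower. Msmo1 and Hmgcs1 measured -0.04 each, and in the WT pair alone Lss differed by -0.35 (all 3 named after their values were seen). Mvk and Sc5d measured 0.39 ± 0.10 and 0.38 ± 0.11 without passing.

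Among regulators 1 of 16 fell, Sox9, a transcription factor of the hair follicle and its glands, by 0.70 ± 0.12 log2 units (adjusted p = 0.0386), and 0 rose (median -0.18). Insig2, Mc1r and Prdm1 measured -0.77 ± 0.17, -0.64 ± 0.14 and 0.53 ± 0.12. Pparg, the nuclear receptor that drives sebocyte differentiation, measured -0.29 ± 0.12 (adjusted p = 0.275), and Srebf1, which activates fatty acid synthesis genes, -0.16 ± 0.09 (adjusted p = 0.431), both named after their values were seen. In the list of other sebaceous gland genes 1 of 9 rose, Fabp5, by 1.22 ± 0.22 (adjusted p = 0.0428), a fatty acid binding protein that keratinocytes also express, and 0 fell (median -0.17). Fa2h, Pnpla5 and Mgst1 measured -0.46 ± 0.17, -0.28 ± 0.19 and -0.20 ± 0.12.

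**Figure D4:**
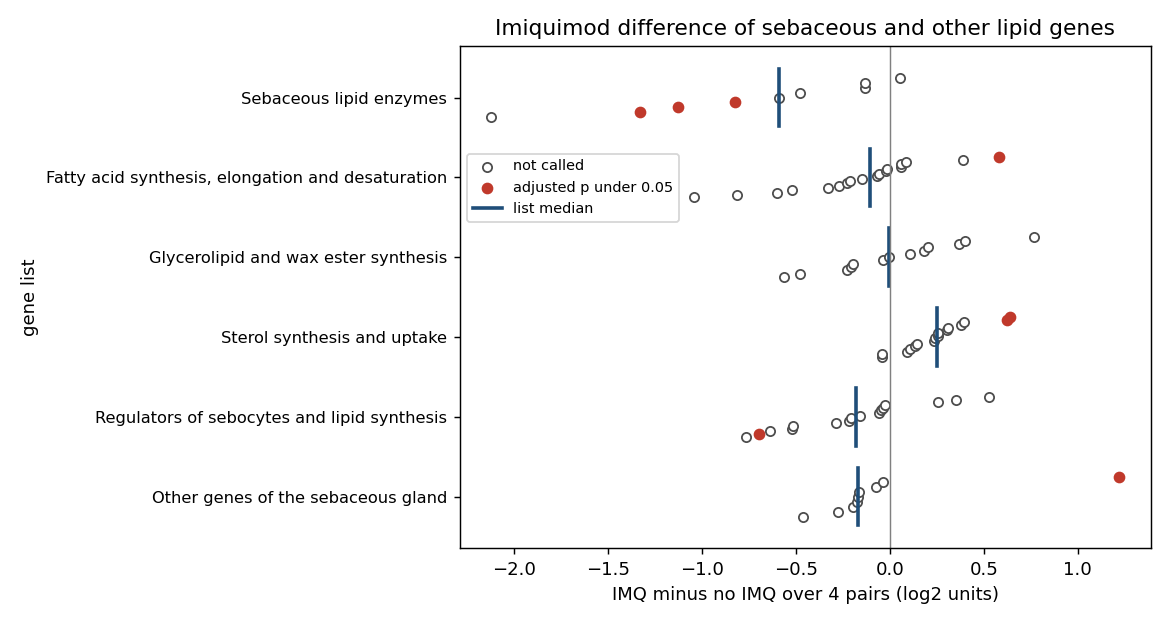
IMQ minus no IMQ over 4 pairs (x axis, log2 units, limma) for each measured gene of the sebaceous list and of 5 other lists (rows), with called genes filled and list medians as bars. The sebaceous list had a median of -0.59 with 3 genes called lower, and the sterol list a median of 0.25 with 2 called higher.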

How the data were processed

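Dorsal skin RNA was measured on 8 Affymetrix arrays, 1 per label. The deposited values are log2 expression levels of 41345 probe sets, made by the authors with RMA. The submitters' processing notes list RMA, Affymetrix Power Tools and R 3.3.2, the last with no stated role. Because RMA forces a common distribution on the arrays, global shifts are lost, and differences of dim genes come out too small. The number of arrays limits the precision.

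Of the probe sets, 23521 had 1 gene symbol, 1814 several and 16010 none. Where a gene had several, the brightest on average was used, giving 22180 genes, with no filter on dim genes. Fits used limma 3.58.1 in R 4.3.3 (lmFit, eBayes) over all genes, with Benjamini-Hochberg adjustment and calls at an adjusted p under 0.05. One fit estimated arm levels and a common IMQ effect (3 residual degrees of freedom), the other an IMQ effect per genotype (2). Errors after ± are limma standard errors unless marked SD. Nothing says that arrays hold separate animals, so the spread behind the p-values may be technical.

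The genes and lists were chosen with earlier results of these data known. All 10 genes of the sebaceous list were to be named, with up to 4 genes of each other list by size plus every called one of the lipid lists, and the 5 genes most like the mean profile. Counts over the order of arrays and the contrast of all KO arms with WT were chosen after the values were seen. Alternatives were every probe set as its own feature, a filter on dim genes, median centring, a trended robust prior, no arm levels, B read as a second array, and leaving out each array.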

Additional observations from a re-analysis of the deposited data

How the results depend on the processing

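The count of sebaceous genes called lower with IMQ over 4 pairs (3 of 9: Mc5r, Fads2 and Awat2) was 5 among genes whose highest array lies above the median level, which added Scd3 and Elovl6, and 1 (Mc5r) both without arm levels and when the B pair was merged into the KO plain arm. It was 3 with every probe set as its own feature and with centred arrays, and 4 with a trended robust prior. Over all genes the share called lower was 1.19% in the main fit and 3.02% with the filter. That share was 0.857% without arm levels and 0.343% with the B pair merged. It was 1.15% with every probe set, 1.05% with centred arrays and 1.33% with the trended prior. Leaving out each array gave 0 to 5 of the 9 genes and 0% to 2.17% of all genes. For the KO pairs the count of sebaceous genes was 0 under each other setting and 0 to 2 when arrays were left out. Up to 0.293% of all genes were called lower there. For KO minus WT responses and KO plain minus WT the count was 0 under every setting run. Fewer arrays leave fewer degrees of freedom, and other causes were not tested. No called gene changed direction. With 1 array per label, differences between single arrays have no replicate check.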
